A study of Mus musculus with 166 samples.

Results

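The Mir181 family comprised 6 hairpin genes, Mir181a-1, Mir181a-2, Mir181b-1, Mir181b-2, Mir181c and Mir181d. They were taken as the rows of the deposited count table whose transcript ID carried one of these symbols in GENCODE M21. All 6 were found among 1626 features, of which 1228 had a GENCODE entry, and each had counts in every library. Together they took a median of 16.5% of all counts of a cerebellar library (range 14.8% to 19.6%, 157 libraries).

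MicroRNAs were measured by small RNA sequencing of cerebellum, with 1 library per mouse. The mice were wild type (WT) or carried 1 knock-in Htt allele, that is, the mouse huntingtin gene with a human exon 1 of about 20, 80, 92, 111, 140 or 175 CAG repeats (Q20, Q80, Q92, Q111, Q140 and Q175), the expansion that causes Huntington's disease. They were killed at 2, 6 or 10 months, and the 21 groups of line and age held 7 or 8 mice of both sexes. All knock-in mice were heterozygous on a C57BL/6 background, WT were littermates of the Q20 line, and Q175 arose from Q140 by spontaneous expansion, so CAG length and other differences between the lines cannot be told apart. By the paper's account, cages held heterozygous and WT mice of the same sex, and whether lines shared a cage is not given. Q20 and WT together were the controls. All 16 WT and Q175 libraries at 6 months bore identifiers with the prefix 330 and all others a second prefix. Of the second prefix, no lane number used at 10 months was used at another age, so that age and its lanes cannot be told apart.

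Total counts per library ranged from 3094703 to 6188935 (median 4321047.5). In total 9 libraries lay far from the others of their age in overall profile and did not enter the fits: 8 at 2 months (2 WT, 1 Q20, 2 Q80, 2 Q92 and 1 Q111) and 1 Q20 library at 10 months. Unless stated, CPM is the read count scaled to a common library size with TMM factors. For the microRNA lists below, and their members named next, it was scaled by the total counts of the library alone, without TMM factors. On that scale, the brain microRNA Mir9-2 had a median of 42386 CPM and Mir124a-1 10571 CPM. Mir196a-1, Mir196a-2 and Mir196b, of the Hox clusters, had medians of 0. In these bulk samples, fewer cells of a type and less RNA per cell cannot be told apart.

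MicroRNAs are cut from hairpin precursors and guide Argonaute proteins to messenger RNAs, mainly by pairing of the seed, bases 2 to 8 from the 5′ end. The miR-181 family is found throughout vertebrates and is abundant in brain and in lymphocytes. In mouse lymphocytes miR-181a tunes the strength of T cell receptor signalling, and in rodent neurons it lowers synthesis of an AMPA receptor subunit.

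The mature sequences are shown because they define what a read can tell apart. The 5p arms, the strand that is mostly used, are given in RefSeq (GRCm38.p6) as follows, with the seed in capitals.
miR-181a-5p, from both Mir181a-1 and Mir181a-2: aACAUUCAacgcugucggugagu
miR-181b-5p, from both Mir181b-1 and Mir181b-2: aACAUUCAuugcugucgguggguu
miR-181c-5p: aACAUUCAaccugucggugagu
miR-181d-5p: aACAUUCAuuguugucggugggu
All 4 share the seed, and of the 1679 mature mouse microRNAs of the table no other carried it. Counted from the 5′ end of miR-181a-5p, miR-181b-5p differed by A9U, C10U and A21G and had 1 further base at its 3′ end, miR-181d-5p differed by A9U, C10U, C12U and A21G, and miR-181c-5p lacked the base G11. The 5p arms of Mir181a-1 and Mir181a-2 were thus the same 23 bases, within a shared run of 28 bases of the hairpins, and those of Mir181b-1 and Mir181b-2 the same 24, within a shared run of 26. Of the mature sequences only the 3p arms set the copies apart, and they are shown with bases 2 to 8 in capitals.
miR-181a-1-3p: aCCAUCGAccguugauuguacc
miR-181a-2-3p: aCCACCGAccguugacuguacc
miR-181b-1-3p: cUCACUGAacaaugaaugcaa
miR-181b-2-3p: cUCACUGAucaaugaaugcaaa

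The hairpins lay in 3 pairs on the mouse genome (GRCm38). Mir181a-1 (ENSMUST00000083631, chr1:137966455-137966541) and Mir181b-1 (ENSMUST00000083524, chr1:137966639-137966718) lay on the plus strand 97 bases apart, each overlapping an exon of the long noncoding RNA A430106G13Rik. Mir181a-2 (ENSMUST00000083489, chr2:38852735-38852810) and Mir181b-2 (ENSMUST00000083644, chr2:38853830-38853918) lay on the plus strand 1019 bases apart, in an intron of Nr6a1, an orphan nuclear receptor gene on the opposite strand. Mir181c (ENSMUST00000083549, chr8:84178873-84178961) and Mir181d (ENSMUST00000102383, chr8:84178716-84178787) lay on the minus strand 85 bases apart, in an intron of Nanos3, a germ cell gene on the same strand.

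Of the family's counts, Mir181a-2 took a median of 83.9% per library, Mir181c 8.02%, Mir181a-1 3.37%, Mir181b-1 3.34%, Mir181d 0.721% and Mir181b-2 0.604%. Mir181a-2 ranked 2 of the 454 microRNAs tested by mean CPM, Mir181c 15, Mir181a-1 33, Mir181b-1 34, Mir181d 69 and Mir181b-2 76. Per kilobase of hairpin, the median levels were 1827284 CPM for Mir181a-2, 148096 for Mir181c, 68842 for Mir181b-1, 64187 for Mir181a-1, 16472 for Mir181d and 11249 for Mir181b-2. The members varied little between mice of one group. The pooled within-group SD of log2 CPM was 0.087 for Mir181d, 0.089 for Mir181b-1, 0.10 for Mir181a-2, 0.11 for Mir181c, 0.11 for Mir181a-1 and 0.18 for Mir181b-2, against a median of 0.25 over all 454.

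How the reads of a shared 5p arm were assigned differed between the deposited tables. In the count table Mir181a-1 held a median of 0.0401 reads for each read of Mir181a-2 in the 141 fitted libraries with the second prefix. In the authors' RPKM table, multiplied by hairpin length, the same libraries held a median of 1.00323 (range 1.00034 to 1.0042). For Mir181b-1 to Mir181b-2 the medians were 5.50 in counts and 0.988 (range 0.982 to 0.991) in RPKM. In these libraries the median ratio of RPKM to counts scaled the same way was 16.4 for Mir181a-1 and 0.661 for Mir181a-2. It was 0.741 for Mir181b-1 and 4.13 for Mir181b-2, against 0.640 for Mir181d and 0.536 for Mir181c. The ratios of Mir181a-2 and Mir181b-1 were thus not below those of Mir181c and Mir181d. Equal values therefore do not show that shared reads were divided between the copies. In the 16 libraries with prefix 330 both tables gave the same median ratios, 0.0396 and 5.44. Levels and differences of Mir181a-1 against Mir181a-2, and of Mir181b-1 against Mir181b-2, are therefore uncertain, and values of the summed pairs are given beside those of the copies in the comparisons of genotypes and ages.

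**Figure D1:**
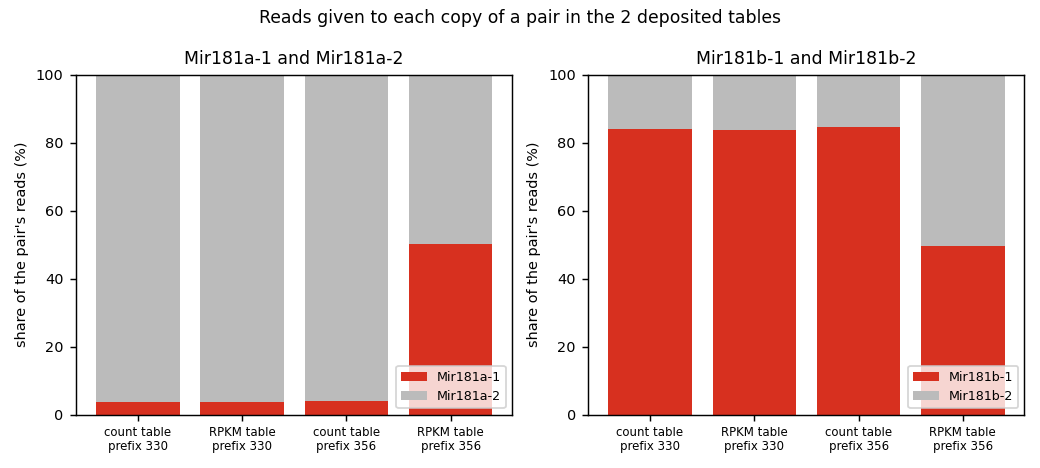
Share (%) of each copy in the summed value of its pair, in the count table and in the RPKM table times hairpin length, by library prefix (16 libraries with 330 and 141 with the second prefix). Only the RPKM table of the second prefix gave both copies of each pair almost equal values, at median ratios of 1.00323 and 0.988. Whether shared reads were divided there or counted for both copies is not shown.

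At 10 months, the summed level of the 6 members ranged in the 7 Q20 mice from 138769 to 170211 CPM (median 148970), and in the 8 WT mice from 142751 to 173278 (median 159215). It ranged from 161907 to 184261 CPM (median 165839) in the 8 Q175 mice. All 8 Q175 mice lay above the control median and 3 lay above the highest control, so the groups overlapped. For the lines between, the medians were 162036 CPM in Q80, 162176 in Q92, 170682 in Q111 and 165867 in Q140.

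The level of Mir181a-1 at 10 months ranged from 4495 to 6346 CPM (median 4837) in WT, from 4473 to 6017 (median 4787) in Q20 and from 5409 to 6609 (median 6053) in Q175. In Q175 all 8 mice lay above the control median and 3 above every control. Mir181c ranged from 11233 to 14588 CPM (median 13189) in WT, from 11732 to 13972 (median 12458) in Q20 and from 12904 to 15952 (median 14064) in Q175. Its highest 3 Q175 mice, all males, exceeded every control. Mir181d, its neighbour, ranged from 1129 to 1414 CPM (median 1222) in WT, from 1073 to 1306 (median 1163) in Q20 and from 1316 to 1481 (median 1340) in Q175. All 8 Q175 mice lay above the highest of the Q20 mice, and 2 lay above all WT mice as well. How many other microRNAs separated Q175 from Q20 in this way was not counted. Mir181a-2 ranged from 119460 to 145010 CPM (median 132979) in WT, from 114965 to 143428 (median 124472) in Q20 and from 135148 to 154010 (median 138114) in Q175. Again 3 Q175 mice, all males, lay above every control. Mir181a-1 and Mir181a-2 summed ranged from 119752 to 151356 CPM (median 137281) in the 15 controls and from 140732 to 160440 (median 144011) in Q175. Mir181b-1 and Mir181b-2 summed ranged from 5801 to 7915 CPM (median 6345) and from 6237 to 7438 (median 6592).

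**Figure D2:**
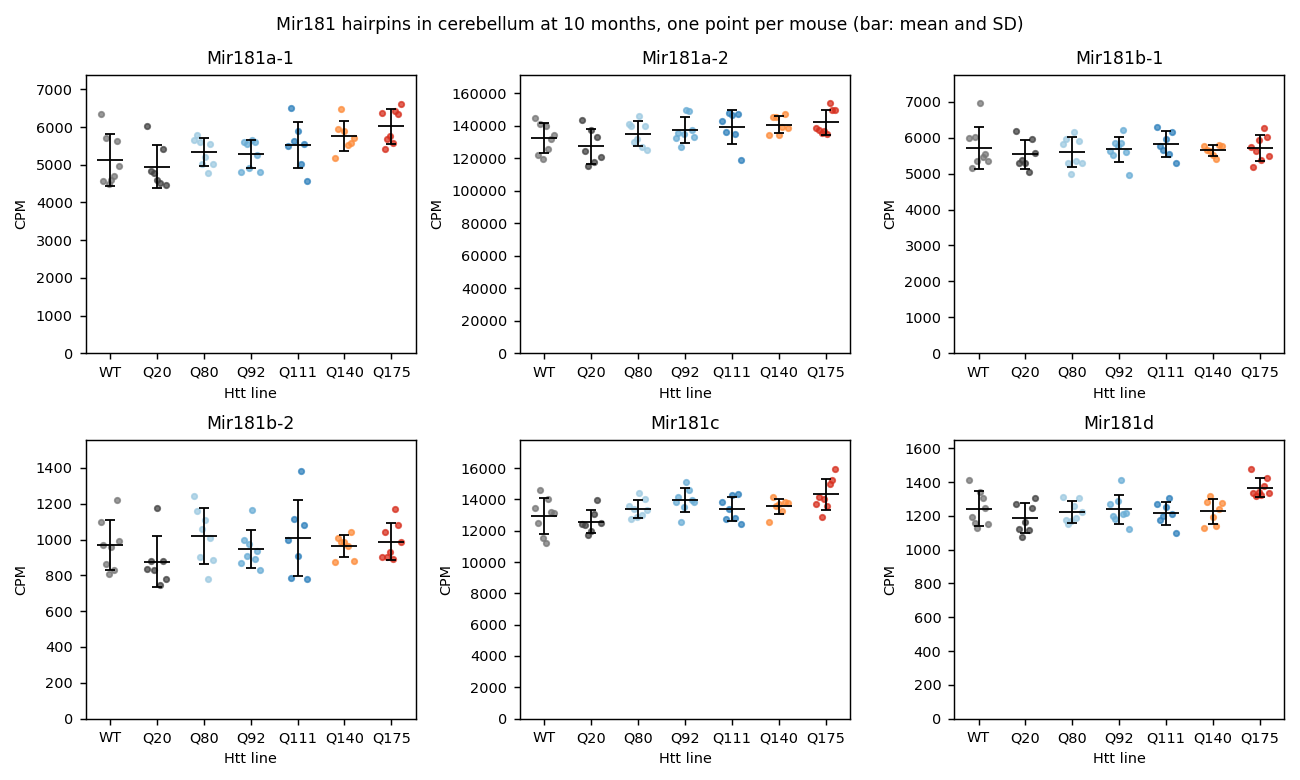
CPM of each member at 10 months by Htt line, 1 point per mouse (7 or 8 per line), with mean and SD as bars. Q175 mice lay higher than most WT and Q20 mice for Mir181a-1, Mir181a-2, Mir181c and Mir181d, with overlap, whereas Mir181b-1 and Mir181b-2 overlapped throughout.

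Differences were fitted with edgeR's quasi-likelihood test over 454 microRNAs with sex as a term, and called at an adjusted p (Benjamini-Hochberg over all 454) under 0.05. Errors beside log2 differences are standard errors. In Q175 against controls at 10 months, 4 of 6 members rose, where 12.8% of all microRNAs tested rose, and none fell. Mir181a-1 was higher by 0.25 ± 0.055 on the log2 scale (18.7%, adjusted p = 0.000324), Mir181d by 0.16 ± 0.038 (11.4%, adjusted p = 0.001), Mir181c by 0.15 ± 0.034 (10.9%, adjusted p = 0.000557) and Mir181a-2 by 0.12 ± 0.037 (8.30%, adjusted p = 0.0161). Mir181b-1 differed by 0.0042 ± 0.045 (95% interval -0.084 to 0.092) and Mir181b-2 by 0.082 ± 0.081 (-0.077 to 0.24), neither past the threshold. The median difference was 0.13 over the members and -0.057 over all 454. Of all calls 49.6% were higher, and 60.2% were higher with library sizes computed without the members. The median size of all calls in this comparison was 0.25.

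Mir181a-1, Mir181c and Mir181d stayed past the threshold under all 13 other settings and without any 1 of the 23 mice. For Mir181a-1, summed copies and both RPKM settings hold values of the pair rather than of that copy. Mir181a-2 lost its call with a lane term (0.087, adjusted p = 0.082) and against WT alone (0.095, adjusted p = 0.121). With both copies summed before the fit, Mir181a-1 plus Mir181a-2 was higher by 0.14 (adjusted p = 0.00297) and Mir181b-1 plus Mir181b-2 differed by 0.035 (adjusted p = 0.608). In the RPKM table the differences were 0.14 for both Mir181a-1 and Mir181a-2 (adjusted p = 8.36e-05 and 8.49e-05, limma on log2(RPKM + 1)). That table gave both copies almost the same reads in these libraries (ratio 1.00034 to 1.0042), so it cannot show whether their changes differed. Within lane L5, means of Q175 (n = 5) exceeded those of controls (n = 7) by 12.5% for Mir181a-1, 9.69% for Mir181c, 12.0% for Mir181d and 4.45% for Mir181a-2, and within lane L6 (3 against 3) by 18.5%, 10.5%, 17.2% and 11.9% in the same order. Lane L4 held 5 controls and no Q175 mouse, and its control means were the lowest of the lanes for Mir181a-1, Mir181a-2 and Mir181c (4622, 124662 and 12399 CPM) but the highest for Mir181d (1244 CPM).

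Counts of other microRNAs were set beside these. Of a list of brain microRNAs, 27 of 28 listed were in the table and tested, and in Q175 at 10 months 6 rose and 6 fell, with a median difference of -0.034. Levels of the lists are CPM without TMM factors, so they are not on the scale of the members' levels. The summed level of that list was 73819 to 80677 CPM in Q175 and 67881 to 77594 in controls. For the oligodendrocyte list, led by Mir338 and Mir219a-2 (3 of 4 in the table), it was 3573 to 4688 CPM in Q175 (median 3747) against 3951 to 5751 in controls (median 4414). For the microglia and immune list (5 of 8), it was 2421 to 2929 CPM (median 2679) against 2683 to 3108 (median 2949). Both medians were lower in Q175, with overlapping ranges. Of the oligodendrocyte list 2 of 3 microRNAs fell, and of the microglia and immune list 1 of 5 rose and 1 fell. Among all microRNAs tested 12.8% rose and 13% fell. The part of these lists in the members' differences was not tested. The choroid plexus list (7 of 8; 16760 to 22886 CPM in Q175, 16113 to 26665 in controls), the erythroid list (3 of 4; 16258 to 21151 and 17359 to 24774), the vascular list (3 of 5; 13307 to 18993 and 14479 to 19238), the Hox-linked list (6 of 6; 1456 to 2902 and 1041 to 5059) and the epithelial list (5 of 5; 3.73 to 63.4 and 4.21 to 40.8) overlapped between the groups.

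At 6 months, Q175 was compared with WT of the same library prefix, through a prefix term in the fit. Mir181d was the member called: its level ranged from 1187 to 1451 CPM (median 1271) in the 8 WT mice and from 1402 to 1561 (median 1464) in the 8 Q175 mice. All 8 Q175 mice lay above the WT median and 5 lay above the highest WT mouse, a male that was also the highest of its group for all 5 other members. Mir181d was higher by 0.21 ± 0.040 (15.3%, adjusted p = 0.000115, edgeR), so 1 of 6 members rose, where 10.6% of all microRNAs tested rose. The differences of the other members were 0.15 ± 0.076 for Mir181b-2, 0.12 ± 0.064 for Mir181a-1, 0.11 ± 0.059 for Mir181c, 0.085 ± 0.057 for Mir181a-2 and 0.031 ± 0.044 for Mir181b-1, with adjusted p from 0.211 to 0.787. With the copies summed, Mir181a-1 plus Mir181a-2 was at 0.087 (adjusted p = 0.371) and Mir181b-1 plus Mir181b-2 at 0.051 (adjusted p = 0.531). The member median was 0.12 against -0.0023 over all microRNAs. Of all calls 60% were higher, and 70.9% with library sizes computed without the members.

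The call of Mir181d at 6 months held without any 1 of the 24 mice and under all 12 other settings. Of these settings, WT alone as control equals the reported comparison, so it could not lose the call. Without the WT male M2, 4 members passed the threshold (Mir181a-1 at 0.18, Mir181b-2 at 0.22 and Mir181c at 0.17, beside Mir181d), and without the Q175 male M4, which was the lowest Q175 mouse for Mir181a-1, Mir181a-2, Mir181b-1 and Mir181b-2, 2 members did. Lanes were uneven, since 7 of 8 Q175 and 4 of 8 WT libraries were in lane L5. Within L5 the Q175 mean differed from the WT mean by 10.8% for Mir181d, 4.59% for Mir181a-1, 0.0367% for Mir181c and -2.34% for Mir181a-2. Among the WT mice alone, the mean of Mir181a-2 was 163266 CPM in the 4 libraries of L5 and 133601 CPM in the 4 of L6. With a lane term, Mir181d stayed past the threshold (0.16, adjusted p = 0.00257), whereas Mir181a-1 was at 0.063, Mir181c at 0.024, Mir181b-1 at -0.014, Mir181b-2 at -0.015 and Mir181a-2 at -0.018.

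The microRNA lists, again in CPM without TMM factors, differed at 6 months as well. Of all microRNAs tested 10.6% rose and 7.05% fell. The microglia and immune list did not overlap, at 2492 to 2720 CPM in Q175 and 2733 to 2863 in WT, and 1 of its 5 microRNAs tested fell. How often other microRNAs did not overlap was not counted. The erythroid list was at 19719 to 21758 CPM in Q175 and 21701 to 26945 in WT, with 1 of 3 lower, and the oligodendrocyte list at 2957 to 3383 and 2931 to 4006, with 1 of 3 lower. Of the epithelial list all 4 microRNAs tested rose (median difference 2.66), at a summed level of 1.20 to 109 CPM in Q175 and 2.25 to 5.72 in WT. For the vascular list 1 of 3 fell, for the choroid plexus and Hox-linked lists 0 of 7 and 0 of 3 were called, and of the brain list 6 rose and 5 fell. The part of these lists in the difference of Mir181d was not tested.

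At 2 months, 0 of 6 members were called in Q175, where 0.22% of all microRNAs tested were called in either direction, and 0 of 6 had an unadjusted p under 0.05. DESeq2 also called 0. Mir181d ranged from 1054 to 1296 CPM (median 1198) in the 13 controls and from 1093 to 1258 (median 1158) in the 8 Q175 mice, and Mir181c from 12141 to 14698 (median 13067) and from 12537 to 14721 (median 12839). The differences of the 6 members lay between -0.048 ± 0.032 for Mir181d and 0.049 ± 0.027 for Mir181a-1. The summed pairs were at 0.0099 for Mir181a-1 plus Mir181a-2 and 0.00037 for Mir181b-1 plus Mir181b-2.

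**Figure D3:**
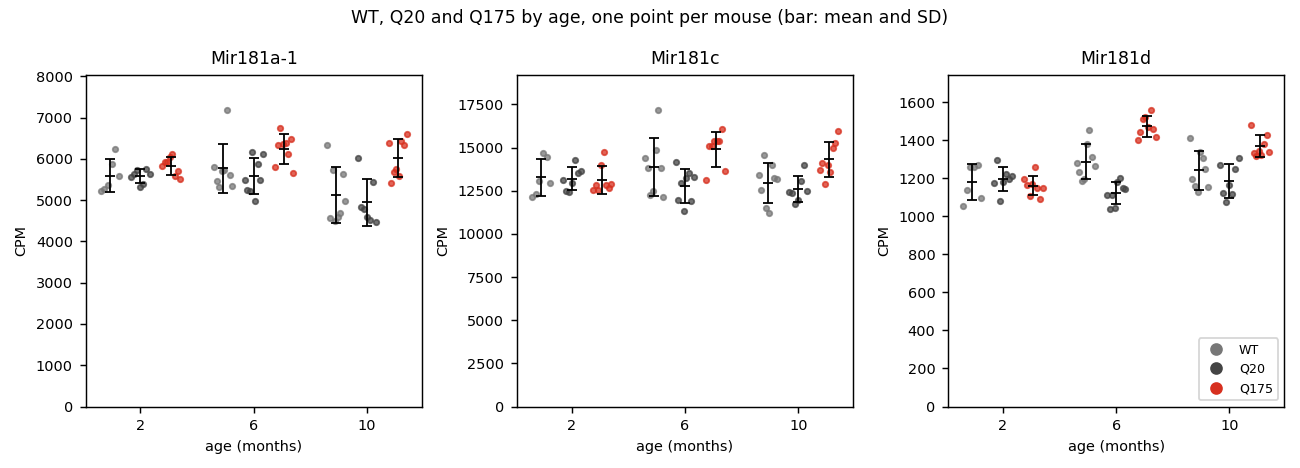
CPM of Mir181a-1, Mir181c and Mir181d in WT, Q20 and Q175 mice by age, 1 point per mouse, with mean and SD as bars. The Q175 mice overlapped the controls at 2 months. For Mir181d at 6 months they lay at 1402 to 1561 CPM, against 1187 to 1451 in WT of the same library prefix. At 10 months they lay at 1316 to 1481 CPM, toward or above the top of the controls. Q20 libraries at 6 months bore the second prefix, so their levels are not comparable with Q175 at that age.

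Whether the effect of Q175 differed between 10 and 2 months was tested in 1 fit of all ages. It was larger at 10 months for 2 of 6 members, where 7.49% of all microRNAs tested had a larger effect. The effect of Mir181d differed by 0.20 ± 0.053 (adjusted p = 0.00305, edgeR) and that of Mir181c by 0.18 ± 0.061 (adjusted p = 0.0407). For Mir181a-1 the difference of effects was 0.20 ± 0.072 (adjusted p = 0.054), for Mir181a-2 0.11 ± 0.064, for Mir181b-2 0.11 ± 0.11 and for Mir181b-1 0.0065 ± 0.056. For Mir181a-1 plus Mir181a-2 it was 0.13 (adjusted p = 0.193). The call of Mir181c was lost when no filter on low counts was used and when all libraries were kept (highest adjusted p 0.0954).

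In the Q140 line, 1 of 6 members rose at 10 months, where 3.96% of all microRNAs tested rose. Mir181a-1 ranged from 5189 to 6485 CPM (median 5712) in the 7 Q140 mice, all above the control median of 4787 and 1 above the highest control. It was higher by 0.19 ± 0.057 (14.3%, adjusted p = 0.0377, edgeR). The call was kept under 3 of 13 other settings, DESeq2 among them, with adjusted p from 0.00936 to 0.151. The difference was 0.11 for both copies summed (adjusted p = 0.0975) and 0.087 in the RPKM table (adjusted p = 0.0533). Mir181a-2 was at 0.11 ± 0.039 (adjusted p = 0.0839) and Mir181c at 0.074 ± 0.036 (adjusted p = 0.276), and Mir181d at 0.0050 ± 0.040. At 2 and at 6 months 0 of 6 members were called in Q140, where 0% of all microRNAs were called at either age, 0 of 6 had an unadjusted p under 0.05 at either age, and DESeq2 called 0 members.

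In Q80, Q92 and Q111, 0 of 54 member tests over the 3 ages passed the threshold, where 0% of all microRNAs tested were called in each of these 9 comparisons. Among all 454, 13 to 33 had an unadjusted p under 0.05 in edgeR and 0 to 4 were called by DESeq2. Of the member tests 7 of the 54 had an unadjusted p under 0.05, the lowest adjusted p was 0.493, and DESeq2 called 0 members. At 10 months the differences of Mir181a-1 were 0.073 ± 0.055 in Q80, 0.055 ± 0.055 in Q92 and 0.14 ± 0.057 in Q111, which stand beside 0.19 in Q140 and 0.25 in Q175. Those of Mir181a-2 were 0.047 ± 0.037, 0.063 ± 0.037 and 0.10 ± 0.039, beside 0.11 and 0.12. With both copies summed the differences were 0.043 in Q80, 0.063 in Q92, 0.11 in Q111, 0.11 in Q140 and 0.14 in Q175, and the medians lay 2.94%, 2.32%, 8.02%, 5.68% and 4.90% above the control median. Those of Mir181d were -0.00097 ± 0.038, 0.010 ± 0.038 and 0.0068 ± 0.040, beside 0.0050 and 0.16. All 5 lines share their controls, and differences between neighbouring lines were not tested.

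**Figure D4:**
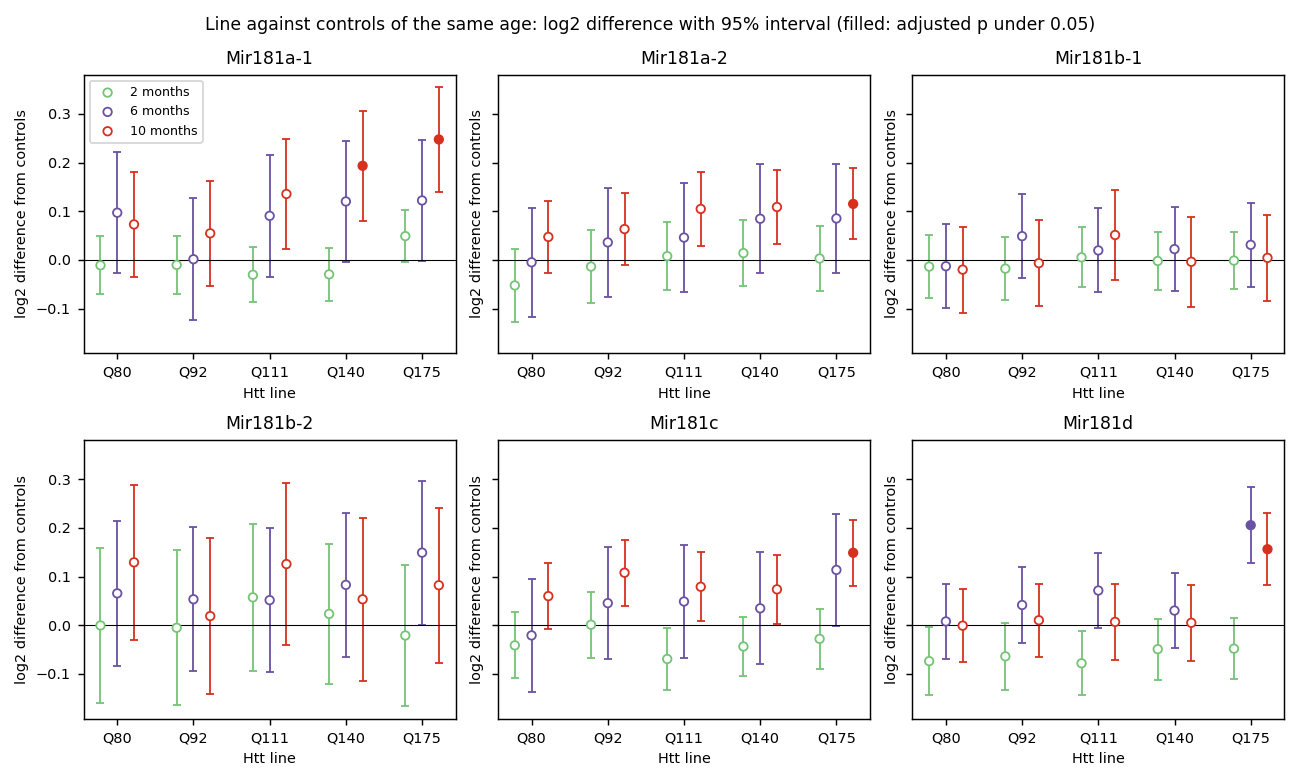
Log2 difference of each member between each line and the controls of the same age, with 95% intervals, at 2, 6 and 10 months (edgeR; filled points have an adjusted p under 0.05). At 10 months Mir181a-1 lay at 0.055 to 0.25 in all 5 lines (0.043 to 0.14 with both copies summed), while Mir181d lay near 0 in Q80, Q92, Q111 and Q140 and at 0.16 in Q175.

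With CAG length as a number (WT set to 7), 4 of 6 members rose with Q at 10 months, where 12.8% of all microRNAs tested rose. The slopes per 100 repeats were 0.15 ± 0.030 for Mir181a-1 (adjusted p = 0.000118, edgeR), 0.081 ± 0.019 for Mir181c (adjusted p = 0.000967), 0.077 ± 0.020 for Mir181a-2 (adjusted p = 0.00332) and 0.065 ± 0.023 for Mir181d (adjusted p = 0.0296). The call of Mir181d was lost with no filter on low counts (adjusted p = 0.0636). For Mir181a-1 plus Mir181a-2 the slope was 0.088 (adjusted p = 0.000747), and in the RPKM table Mir181a-1 had a slope of 0.084. The slopes of Mir181b-1 and Mir181b-2 were 0.0053 ± 0.025 and 0.047 ± 0.045. At 6 months 1 of 6 rose with Q, where 10.4% rose, namely Mir181d at 0.093 ± 0.019 (adjusted p = 0.000362), and Mir181a-1 plus Mir181a-2 was at 0.058 (adjusted p = 0.145). At 2 months 0 of 6 were called, where 0.22% were called, 0 of 6 had an unadjusted p under 0.05, and DESeq2 called 0. These slopes use the same mice as the line comparisons.

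When 6 and 10 months were combined, 4 of 6 members rose in Q175, where 16.1% of all microRNAs tested rose: Mir181d (mean difference 0.18 ± 0.027, adjusted p = 3.24e-08, Stouffer combination of edgeR tests), Mir181a-1 (0.18 ± 0.042, adjusted p = 0.000153), Mir181c (0.13 ± 0.034, adjusted p = 0.000217) and Mir181a-2 (0.10 ± 0.034, adjusted p = 0.00832). The combined call of Mir181a-2 was lost with a lane term (0.035, adjusted p = 0.339), which also took Mir181c to 0.076 (adjusted p = 0.0188). Mir181a-1 plus Mir181a-2 was at 0.11 (adjusted p = 0.00202). Of all calls 50% were higher, and 63.6% with library sizes computed without the members. In Q140 2 of 6 rose, where 4.63% rose: Mir181a-1 (0.16 ± 0.043, adjusted p = 0.00965) and Mir181a-2 (0.097 ± 0.035, adjusted p = 0.0488). Both Q140 calls were lost when the copies were summed (0.095, adjusted p = 0.0534), and Mir181a-1 was at 0.080 in the RPKM table (adjusted p = 0.0291). The call of Mir181a-2 was kept under 7 of 12 other settings and was lost also with library sizes without the members, no filter, the replicate block and Q20 alone (highest adjusted p 0.125). For the slope on Q, 4 of 6 rose, where 14.1% rose, and these were again Mir181a-1, Mir181a-2, Mir181c and Mir181d, with slopes from 0.067 to 0.12 and adjusted p from 5.47e-06 to 0.000442. With the copies summed the slope of Mir181a-1 plus Mir181a-2 was 0.073 (adjusted p = 0.000122), and with a lane term that of Mir181a-2 was 0.040 (adjusted p = 0.0336).

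Aging was examined in the controls. Mir181a-1 ranged from 5221 to 6238 CPM (median 5590) in the 13 controls at 2 months and from 4473 to 6346 (median 4787) in the 15 at 10 months. Mir181b-1, its neighbour on the genome, ranged from 5022 to 6056 CPM (median 5189) at 2 months and from 5053 to 6954 (median 5450) at 10 months. From 2 to 10 months 2 of 6 members fell, where 24.2% of all microRNAs tested fell, and 1 of 6 rose, where 24% rose. Mir181a-1 fell by 0.15 ± 0.044 on the log2 scale (adjusted p = 0.00259, edgeR), Mir181a-2 fell by 0.12 ± 0.039 (adjusted p = 0.00548) and Mir181b-1 rose by 0.089 ± 0.034 (adjusted p = 0.0223). Mir181b-2 was at -0.15 ± 0.068 (adjusted p = 0.0639), Mir181c at -0.051 ± 0.037 and Mir181d at 0.032 ± 0.032. The call of Mir181b-1 was lost under DESeq2 (0.072, adjusted p = 0.0631) and median-of-ratios factors (adjusted p = 0.0647), and that of Mir181a-2 with no filter (-0.092, adjusted p = 0.0814). Mir181b-2 was lower under DESeq2 (adjusted p = 0.023), median-of-ratios factors and the replicate block (adjusted p = 0.00796). The members were called about as often as all microRNAs, and the lane numbers differed between these ages.

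In the RPKM table the differences of Mir181a-1 and Mir181a-2 from 2 to 10 months were -0.034 and -0.035 (adjusted p = 0.258 and 0.262, limma), Mir181b-2 was at 0.14 instead of -0.15, and Mir181b-1 at 0.15 (adjusted p = 1.13e-06). There Mir181d, which has no second copy, was at 0.12 instead of 0.032 and passed the threshold (adjusted p = 2.23e-06), and Mir181c was at 0.037 instead of -0.051 (adjusted p = 0.244). The limma fits used no TMM factors, unlike the edgeR fits, so the assignment of copies was not the only difference between them. With the copies summed, Mir181a-1 plus Mir181a-2 was at -0.11 (adjusted p = 0.0114) and Mir181b-1 plus Mir181b-2 at 0.071 (adjusted p = 0.0654). Within Q20, 1 of 6 members fell between 6 and 10 months, where 6.83% fell: Mir181a-1 fell by 0.17 ± 0.060 (adjusted p = 0.0374), a call kept under 4 of 10 other settings, with -0.053 for both copies summed (adjusted p = 0.574). The settings that kept it include the fit of all ages, which here is the reported fit itself. Between 2 and 6 months in Q20, 0 of 6 were called by edgeR, where 39.4% of all microRNAs were called, 2 of 6 had an unadjusted p under 0.05, and DESeq2 called 2. Of the brain microRNA list, 5 rose and 11 fell of 27 from 2 to 10 months in controls. Among all microRNAs tested 24% rose and 24.2% fell. In the other lists 4 of 4 epithelial microRNAs tested rose (median 1.43), as did 2 of 3 Hox-linked, 2 of 3 oligodendrocyte and 2 of 3 erythroid microRNAs, 3 of 5 of the microglia and immune list rose and 1 fell, 2 of 3 vascular rose and 1 fell, and 1 of 7 of the choroid plexus list rose. Their part in the members' differences was not tested.

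Ratios of neighbouring hairpins varied between mice. The count of Mir181a-1 per count of Mir181b-1 had a median of 1.05 (0.932 to 1.15) in controls at 2 months, 0.892 (0.659 to 1.06) in controls at 10 months and 1.04 (0.969 to 1.20) in Q175 at 10 months. For Mir181c to Mir181d the medians were 11.3 (9.61 to 11.8), 10.6 (8.38 to 12.6) and 10.5 (9.26 to 11.9), and for Mir181a-2 to Mir181b-2 they were 142 (122 to 161), 146 (108 to 171) and 149 (132 to 154). All 3 ratios overlapped between these groups, and they were not tested.

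Females had lower levels of 2 of 6 members than males, where 4.85% of all microRNAs tested were lower in females. Mir181c ranged from 10547 to 15386 CPM (median 12881) in 80 females and from 10984 to 17188 (median 13580) in 77 males. The female mean was the lower in 18 of the 21 groups of line and age. The fitted difference was -0.071 ± 0.016 (-4.77%, adjusted p = 0.000474, edgeR over all libraries with a term for each group), and it passed the threshold under all 10 other settings. Mir181d ranged from 983 to 1523 CPM (median 1168) in females and from 1066 to 1561 (median 1212) in males, with the lower mean in females in 18 of 21 groups. It differed by -0.046 ± 0.014 (adjusted p = 0.0164), a call kept under 6 of 10 other settings. Both counts of settings include the fit of all ages, which here is the reported fit itself. The other members lay between -0.014 and 0.0089, with 8 to 11 of 21 groups higher in females. Of all calls 33.3% were higher in females, against 45.2% in DESeq2 and 43.8% with median-of-ratios factors.

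**Figure D5:**
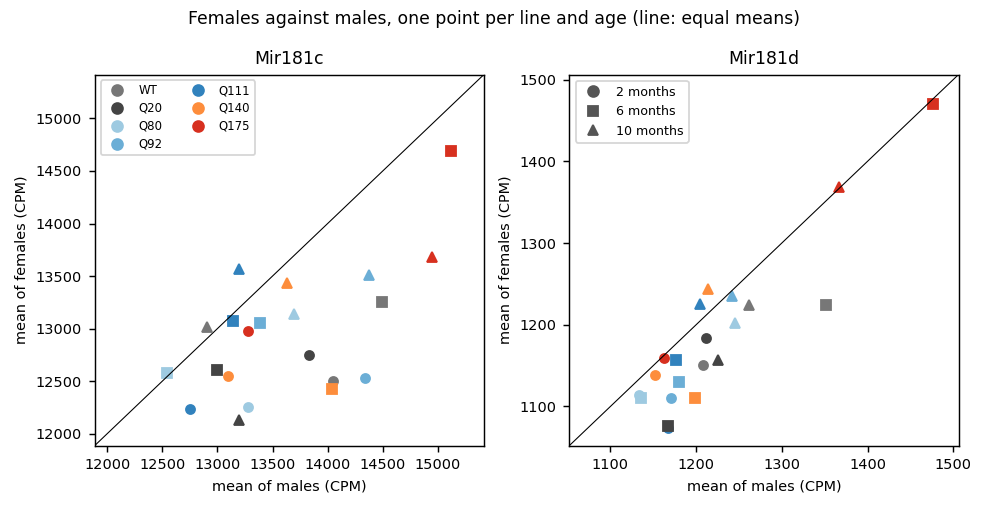
Mean CPM of Mir181c and Mir181d in females against males for each of the 21 groups of line (colour) and age (symbol), with the line of equal means. For both members 18 of 21 points lie below the line.

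Q20 and WT were pooled as controls. Between them 0 of 6 members were called at 2 and at 10 months, where 0% of all microRNAs were called at either age, 0 of 6 had an unadjusted p under 0.05, and DESeq2 called 0. The 95% intervals of the differences (Q20 minus WT) at 10 months ran from -0.17 to 0.066 for Mir181a-1, from -0.14 to 0.061 for Mir181c and from -0.15 to 0.021 for Mir181d.

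Over all 21 groups, mean levels lay close together. The highest group mean of the summed family was 186587 CPM in Q175 at 6 months and the lowest 152465 CPM in Q20 at 10 months, a ratio of 1.22. Q175 at 6 months also had the highest mean of each member. When groups were put in order of their means, none of the 20 neighbouring pairs was further apart than the smaller of the 2 SDs for the sum, Mir181a-1, Mir181a-2, Mir181b-2 or Mir181c, against 1 pair for Mir181b-1 and 2 pairs for Mir181d. Neighbours among 21 ordered means lie close largely by construction, so these counts do not show whether groups differed. For Mir181d the order ended with Q175 at 10 months (1368 ± 58 CPM, SD, n = 8) and Q175 at 6 months (1473 ± 55, SD, n = 8). WT at 6 months, of the same library prefix as Q175 at 6 months, had the next highest mean of the sum, at 176667 CPM, so levels at 6 months are comparable only within a prefix.

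Across the 141 fitted libraries with the second prefix, with log2 CPM centred within line and age, the members varied together to different degrees. Pearson's r was 0.72 between Mir181a-2 and Mir181b-1, 0.65 between Mir181a-2 and Mir181c, 0.54 between Mir181c and Mir181d, 0.51 between Mir181a-1 and Mir181a-2, 0.37 between Mir181a-1 and Mir181b-1 and 0.24 between Mir181b-1 and Mir181b-2, the values for copies being set in part by how shared reads were assigned. The microRNAs most like the summed level of the family, of 448 others, were Mir486 (r = 0.70, median 18797 CPM), Mir300 (0.62, 2569 CPM), Mir30a (0.62, 53958 CPM), Mir488 (0.60, 220.5 CPM) and Mir340 (0.60, 2433 CPM). Since Mir181a-2 took a median of 83.9% of the family's counts, likeness to the sum is mainly likeness to that member. It was not computed for single members. Mir486 is known from red blood cells and muscle, Mir488 from neurons, and Mir300 belongs to the large imprinted microRNA cluster of chromosome 12. The least like were Mir574 (-0.38, 16.9 CPM) and Mir128-1 (-0.38, 9530 CPM). The summed level of the erythroid list, which holds Mir486, had r = 0.53 with that of the family, and the oligodendrocyte list had r = -0.45. All points share library depth and composition, of which the family itself is a large share.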

How the data were processed

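Small RNA libraries of mouse cerebellum were analysed. By their account the authors aligned the reads to mm10 with STAR and counted them with HTSeq. The deposited values were treated as estimated counts, since the authors' table held fractional values for all 6 members, and the step that made the fractions is not given in the sources used here. The deposited RPKM values (reads per kilobase and per depth, by the authors) were used only as an alternative and beside the ratios of copies. They entered limma without TMM factors or other scaling. CASAVA 1.8.2 is named in the submitters' processing notes. IDs were matched to GENCODE M21 (GRCm38, the same assembly as mm10). Counts were rounded to whole numbers. Libraries with a standardized connectivity under -5 within an age were left out (9), as in the study. The 454 microRNAs passing filterByExpr were fitted with edgeR 4.0.16 (quasi-likelihood test, TMM factors, R 4.3.3), 1 fit per age with sex and, at 6 months, library prefix. Age, sex, Q20 against WT and the interaction used 1 fit of all ages. For these, the alternative of 1 fit of all ages repeats the reported fit. At 6 months so do WT alone for Q175 and Q20 alone for the other lines. Slopes are per 100 CAG. The combination of 6 and 10 months is Stouffer's, with the mean of the differences. Alternatives were DESeq2 1.42.0, limma 3.58.1 on log2(RPKM + 1) or log2(RPKM + 10), median-of-ratios factors, library sizes without the members, no filter, all libraries, a lane term, a replicate block, summed copies, WT or Q20 alone as control, 1 fit of all ages and leaving out mice in turn. The fits were tested on simulated data. No pair of libraries of a group agreed within sampling noise (lowest chi-square per degree of freedom 12.8 over 574 pairs). CPM are relative to all other microRNAs of a library, and those of the microRNA lists were scaled without TMM factors.

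The members and the microRNA lists were chosen with earlier results of these data known. The genes named were the 6 members and their sum, the 5 microRNAs with the highest and the 2 with the lowest correlation with that sum. Mir9-2, Mir124a-1, Mir196a-1, Mir196a-2, Mir196b, Mir338 and Mir219a-2, of the lists, were named in addition, after their values were seen.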

Additional observations from a re-analysis of the deposited data

Results flagged for a closer look

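Of 147 sets of values (7 quantities in 21 groups), 14 held a mouse that stood apart from the others of its group by Dixon's 95% criterion, where chance gives about 1 in 20. The sets were not independent, since Mir181a-2 took a median of 83.9% of the family's counts and some mice were flagged for several quantities. Whether 14 exceeds that rate cannot be judged from this count. In Q140 at 6 months the female F2 was lowest for Mir181a-2 (112209 CPM, next 137189), Mir181b-1 (4444 CPM, next 5466), Mir181c (10547 CPM, next 12807) and the sum (134276 CPM, next 163801), and the female F3 was highest for Mir181a-1 (8110 CPM, next 6521). In Q175 at 2 months the male M1 was highest for Mir181a-2 (166600 CPM) and the sum (195444 CPM), and in Q20 at 2 months the female F2 was highest for the same (156841 and 183474 CPM). WT male M2 at 6 months was highest for Mir181a-1 (7171 CPM, next 5813), and its removal adds calls at 6 months. The others were Mir181a-1 in Q111 at 2 months, female F2 (5003 CPM, lowest), Mir181b-1 in Q92 at 6 months, male M3 (4937 CPM, lowest), Mir181b-2 in Q20 at 10 months, female F5 (1176 CPM, highest), and Mir181c in Q140 at 2 months, male M2 (13966 CPM, highest).

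The effect of Q175 differed between 10 and 2 months by 0.18 (log2) for Mir181c and by 0.20 for Mir181d, by the test of the difference in edgeR.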

How the results depend on the processing

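Over the 6 members and all comparisons, 1877 of the 1956 differences under other settings stayed on their side of the threshold, while 35 gained and 40 lost a call with their direction kept. These differences include the settings that repeat the reported fit. The sign turned in 168, none of them called in the reported fit, and 4 of these were called under the other setting: in the RPKM table Mir181b-2 was at 0.142941 and 0.142913 (pseudocounts 1 and 10) instead of -0.15 from 2 to 10 months in controls, and at 0.114305 and 0.114282 from 2 to 6 months in Q20. In that table Mir181b-1 and Mir181b-2 held almost equal reads in libraries with the second prefix (ratio 0.982 to 0.991). Mir181b-2 there followed Mir181b-1, and the cause of the turned signs was not tested. Counts of members called moved as follows. In Q175 at 6 months (1) they were 3 and 2 in the RPKM table (pseudocounts 1 and 10), and in the association with Q at 6 months (1) they were 2 under DESeq2, median-of-ratios factors, library sizes without the members, all libraries, the replicate block and both RPKM settings. In Q140 at 10 months (1) they were 0 under library sizes without the members, no filter, all libraries, a lane term, the replicate block, summed copies, both RPKM settings, WT alone and Q20 alone. From 2 to 6 months in Q20 (0) they were 2 under DESeq2, median-of-ratios factors and both RPKM settings and 1 with summed copies, and from 6 to 10 months in Q20 (1) they were 0 under no filter, all libraries and summed copies. In the comparison of Q175 effects (2) they were 1 under no filter and all libraries, and in females against males (2) they were 1 under library sizes without the members, no filter, all libraries and summed copies. Leaving out mice in turn gave 4 to 4 members in Q175 at 10 months and 1 to 4 at 6 months.

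Among all microRNAs, the calls in Q140 at 10 months (26) were 10 with no filter, 16 with all libraries, 7 with the replicate block, 2 against WT alone and 15 against Q20 alone. Those in Q140 at 6 and 10 months combined (33) were 19 with no filter, and those in Q175 at 6 months (80) were 52. Mice with the same replicate label did not deviate together (429 pairs, r from -0.38 to 0.50, median 0.018), so the labels do not pair them. With the replicate block 4 members were called in Q175 at 10 months and 1 at 6 months, as without it. The comparison of sexes could not be fitted with the block, because the labels hold the sex. Shared 5p reads limit what can be said of single copies, and libraries at 10 months were in lanes of their own.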
